A study of Mus musculus with 2 samples.

Results

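Synaptonemal complex, cohesin and recombination genes of early meiotic prophase were examined in mouse testis, as 7 genes (Sycp1, Syce2, Sycp3, Smc3, Dmc1, Rad51ap1 and Atm) out of 8251 genes with a probe set of 1 symbol. They were taken by name: every probe set assigned to exactly 1 gene symbol among these was kept, which gave 7 probe sets, 1 per gene, and no probe set shared between a member and another gene. The study measured polyadenylated RNA of testes at day 10 after birth on 2 single-colour arrays, 1 of heterozygous Mili+/- and 1 of homozygous Mili-/- mice. The labels give no other allele, no treatment and no number of animals per array, and the control group is itself heterozygous. Per the labels, meiosis in the mutant halts in zygotene or early pachytene, and day 10 was chosen because dying cells were seen from day 11.

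In meiotic prophase, each chromosome is organised by cohesin along an axis, and paired axes are joined by the central element and transverse filaments of the synaptonemal complex. Programmed DNA breaks are made at the same time and repaired on the homologous chromosome by strand exchange, under the control of the kinase ATM. MILI, the product of Piwil2, belongs to the Piwi family and works with piRNAs in germ cells, and male mutants are known for an arrest in this stage. In a testis of this age most tubule cells are Sertoli cells and spermatogonia and few have entered meiosis, so transcripts of the meiosis-specific ones among these genes come from a minority of cells.

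Of the 7 genes, 5 were read well above the middle of the arrays and 2 were not. The 5 genes had signals between 168 and 192 in Mili+/- and between 119 and 163 in Mili-/-, against array medians of 38.5 and 41.55, and all 5 stood lower in the Mili-/- array. Syce2 and Atm stood lowest, 1.54-fold and 1.52-fold lower, and Sycp1 least, 1.22-fold lower. The same scale gave all 5095 genes past the brightness filter a median log2 difference of -0.13, which is the level to read each difference against. Here a difference is Mili-/- minus Mili+/- on the log2 scale, after each array was centred on its median. A gene passed the filter if it reached the median signal on either array. With 1 array per genotype no test could be made, and the values describe these 2 arrays.

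**Figure D1:**
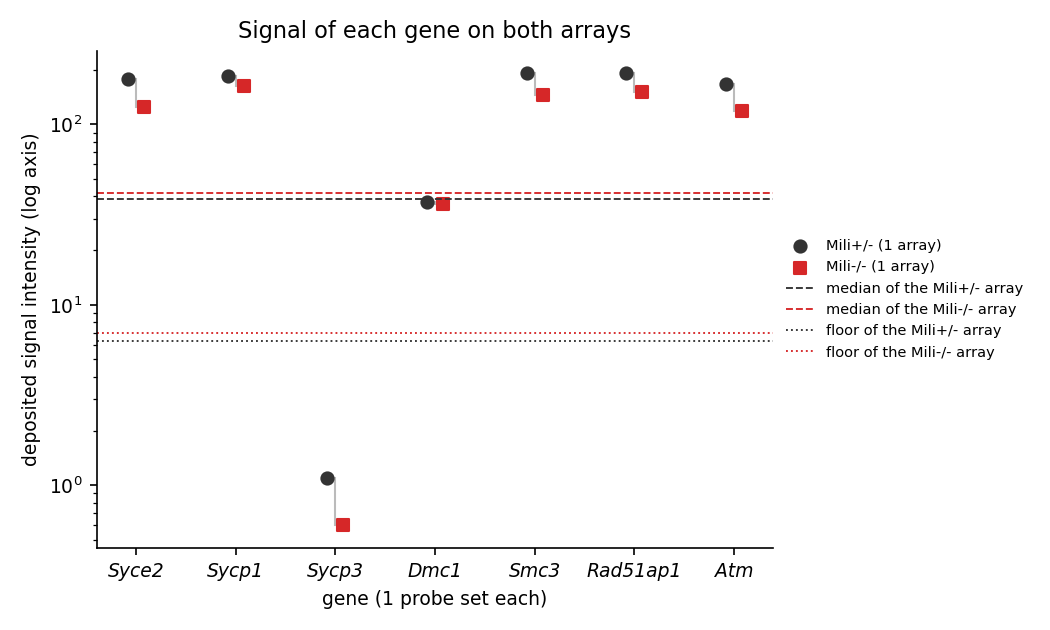
Deposited signal intensity (log axis) of each of the 7 genes, with 1 point for the Mili+/- array and 1 for the Mili-/- array, beside the median and the floor (20th percentile) of each array. Syce2, Sycp1, Smc3, Rad51ap1 and Atm lie above the medians on both arrays, Dmc1 just below them, and Sycp3 below the floor.

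Among the synaptonemal complex genes, Syce2 encodes a protein of the central element. Its signal was 177.5 in Mili+/- and 124.7 in Mili-/-, a log2 difference of -0.62. Relative to the median of genes compared, the difference was -0.49. Either value exceeds 1 SD of the disagreement between probe sets of one gene, which was 0.31. It was taken over 720 genes with several probe sets past the filter. That SD covers neither animals nor hybridisations, and Syce2 itself had a single probe set. Of the 5095 genes compared, 204 (4.0%) had a difference as low or lower.

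Sycp1 encodes the transverse filament that spans the space between the paired axes. Its signal was 184.6 in Mili+/- and 162.8 in Mili-/-, a difference of -0.29. This is smaller than that SD, and 1328 genes (26.1%) stood as low or lower. Sycp3 encodes a protein of the axial and lateral elements and is a usual marker of meiotic cells, but its probe set did not read it. Its signal was 1.1 in Mili+/- and 0.6 in Mili-/-, under the floors of 6.3 and 7.0, and no fold is given. The suffix of that probe set marks relaxed probe selection. These arrays therefore hold no value for the axial element gene most used to stage meiotic cells.

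The first 300 bases around the transcription start (250 before, 50 after) of these 3 synaptonemal complex genes are shown with that of Atm, because the 3 hold the palindromic E-box CACGTG and the other 4 genes do not. Sequences are from RefSeq (GRCm38.p6), read 5′ to 3′ on the gene's strand, with the E-box in capitals. They lie at chr8:84872008-84872307 (plus strand, Syce2), chr3:102936051-102936350 (minus, Sycp1), chr10:88459337-88459636 (plus, Sycp3) and chr9:53536622-53536921 (minus, Atm).
Syce2: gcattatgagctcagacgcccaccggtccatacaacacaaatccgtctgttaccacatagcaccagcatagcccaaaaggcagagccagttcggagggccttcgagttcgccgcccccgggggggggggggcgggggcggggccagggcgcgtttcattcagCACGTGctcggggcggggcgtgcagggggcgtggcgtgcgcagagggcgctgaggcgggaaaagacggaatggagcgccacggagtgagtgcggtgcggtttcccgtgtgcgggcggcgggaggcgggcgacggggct
Sycp1: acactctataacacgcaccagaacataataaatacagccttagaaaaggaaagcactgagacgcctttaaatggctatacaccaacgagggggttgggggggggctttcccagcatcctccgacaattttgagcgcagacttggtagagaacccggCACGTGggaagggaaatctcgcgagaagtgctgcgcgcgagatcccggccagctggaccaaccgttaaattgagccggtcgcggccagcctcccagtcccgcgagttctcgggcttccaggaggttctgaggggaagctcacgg
Sycp3: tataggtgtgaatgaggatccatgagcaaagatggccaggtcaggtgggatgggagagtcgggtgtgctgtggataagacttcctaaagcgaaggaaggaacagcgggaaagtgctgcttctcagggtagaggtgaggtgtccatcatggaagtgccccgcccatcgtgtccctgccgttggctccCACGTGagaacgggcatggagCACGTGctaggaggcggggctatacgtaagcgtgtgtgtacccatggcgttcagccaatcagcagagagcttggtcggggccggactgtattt
Atm: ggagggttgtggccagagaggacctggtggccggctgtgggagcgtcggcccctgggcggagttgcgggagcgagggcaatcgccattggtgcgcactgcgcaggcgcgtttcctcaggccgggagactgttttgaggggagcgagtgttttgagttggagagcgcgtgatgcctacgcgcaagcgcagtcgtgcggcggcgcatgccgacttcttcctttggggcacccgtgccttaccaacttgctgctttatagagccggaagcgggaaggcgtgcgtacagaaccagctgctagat

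The E-box began 88 bases before the start in Syce2, 94 in Sycp1, and 64 and 43 in Sycp3, which held it in 2 copies. All 7 genes had a window in the RefSeq table (8 windows, since Syce2 had an earlier start whose window held none). Of all 32851 windows of this length, 7.15% held the E-box. On both strands, GGCGGG was found in Syce2 (6 copies), Dmc1 (5), Sycp3 (2), Rad51ap1 (2) and Smc3 (1), against 35.3% of all windows. CCTCAG was found in Syce2, Sycp1, Rad51ap1 and Atm (26.8% of windows), CCAAT in Rad51ap1, Sycp3 and Atm (37.4%), and GCGCGC in Sycp1 alone (13.6%). Matches to different motifs overlapped once in Rad51ap1 and once in Syce2. The differences were -0.62 for Syce2 and -0.29 for Sycp1, which hold the E-box, and -0.61 for Atm, which lacks it. Whether the E-box bears on these differences was not tested. A match is a description of these letters and not a shown site.

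Smc3 encodes a core subunit of the cohesin ring, in mitotic and meiotic cells alike. Its signal was 191.8 in Mili+/- and 146.2 in Mili-/-, a difference of -0.50 (1.42-fold lower), and 406 genes (7.97%) stood as low or lower. Of the other cohesin genes and regulators on the array, the meiotic subunit gene Stag3 had 144.6 and 125.6 (-0.31) and the ring subunit gene Rad21 had 882.2 and 847.1 (-0.17). Cdca5, which protects cohesin on chromatin, had 93.9 and 70.8 (-0.52) and a second probe set at -0.65, and the cohesin loader gene Mau2 had 57.2 and 46.1 (-0.42). The other loader gene, Nipbl, went the other way (64.7 and 81.3, 0.22). Stag2 went both ways, with 0.61 in its brighter probe set (142.9 and 234.9) and -0.41 in the other (83.1 and 67.3).

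Among the recombination genes, Rad51ap1 encodes a DNA-binding protein that stimulates joint molecule formation in recombination. Its signal was 191.6 in Mili+/- and 151.6 in Mili-/-, a difference of -0.45 (1.36-fold lower), and 565 genes (11.1%) stood as low or lower. Dmc1 encodes the meiosis-specific strand exchange recombinase. Its signal was 37.3 in Mili+/- and 36.2 in Mili-/-, just under the medians of both arrays, so it was not compared. Its difference was -0.15, against a median of -0.13 for the genes that were. It stood at -0.16 against -0.01 after quantile normalization and at -0.13 against -0.01 after loess, about level with Sycp1. Atm encodes the kinase that signals DNA breaks and limits their number in meiosis. Its signal was 168.3 in Mili+/- and 119.2 in Mili-/-, a difference of -0.61, and 226 genes (4.44%) stood as low or lower.

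Read as a group, the 5 genes past the filter had a median difference of -0.50, against -0.13 for the 5095 genes compared, and spanned -0.62 to -0.29. That median is the value of Smc3, whose product serves mitotic and meiotic cells alike. Of the synaptonemal complex genes, Syce2 stood at -0.62 and Sycp1 at -0.29, while Sycp3 and the meiosis-specific Dmc1 were not compared. The median therefore does not stand for the meiosis-specific genes. All 5 lay below the median of genes compared, where 50% of genes lie by construction. At least 20% lower stood 4 of the 5 (22.3% of genes compared), at least 1.5-fold lower 2 (5.04%), and at least 2-fold lower 0 (0.530%). No member was at least 1.5-fold higher (2.47% of genes compared). The genes were picked with earlier results of these arrays known, in which Syce2, Atm, Smc3 and Rad51ap1 had been named as low, so these counts describe the 5 genes and support nothing beyond them.

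**Figure D2:**
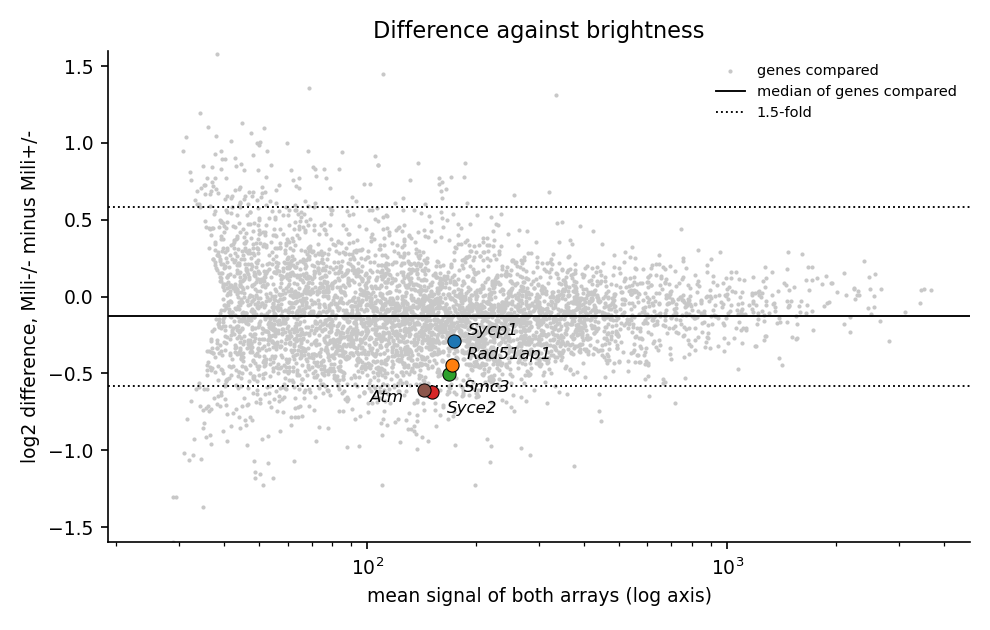
Log2 difference (Mili-/- minus Mili+/-) against the mean signal of both arrays (log axis) for the 5095 genes compared, of which 9 lie beyond the plotted range of 1.6 in size. The 5 genes past the filter, labelled, lie below the median of all genes (solid line), Syce2 and Atm just below the line of 1.5-fold (dotted).

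The genes compared that lay in the same range of mean signal as the 5, 143.8 to 173.7, numbered 397. Their median difference was -0.16, and their central 95% ran from -0.66 to 0.52. Of these 397, 17 stood as low as Syce2 or lower, 22 as low as Atm, 37 as low as Smc3, 51 as low as Rad51ap1 and 107 as low as Sycp1. All 5 thus lay within that central range.

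The size of the differences depended on how the arrays were put on one scale, and the shift between the arrays was not the same at every brightness. The median signal was 38.5 in Mili+/- and 41.55 in Mili-/-, while the 75th percentile was 135 and 132.5. As deposited, without centring, Syce2 stood at -0.51, Atm at -0.50, Smc3 at -0.39, Rad51ap1 at -0.34 and Sycp1 at -0.18. After loess on brightness they stood at -0.47, -0.46, -0.35, -0.30 and -0.14. Under these scalings and quantile normalization all 5 stayed below 0 and below the median of genes compared, and the order of the 5 was the same. Leaving out the centring shifts all genes alike, so it could change neither their order nor their place against that median. Quantile normalization and loess shift genes of like brightness nearly alike, so the kept order is no sign of stability. None of the 5 was 1.5-fold lower as deposited, after quantile normalization or after loess. Relative to the median of genes compared, the median of the 5 stood at -0.38 with centring and as deposited, -0.35 after quantile normalization and -0.35 after loess. The split of all genes past 1.5-fold moved with the scaling too. With centring 257 stood lower and 126 higher. Left as deposited, 124 stood lower and 197 higher, quantile normalization gave 146 lower and 182 higher, and loess gave 138 lower and 184 higher.

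**Figure D3:**
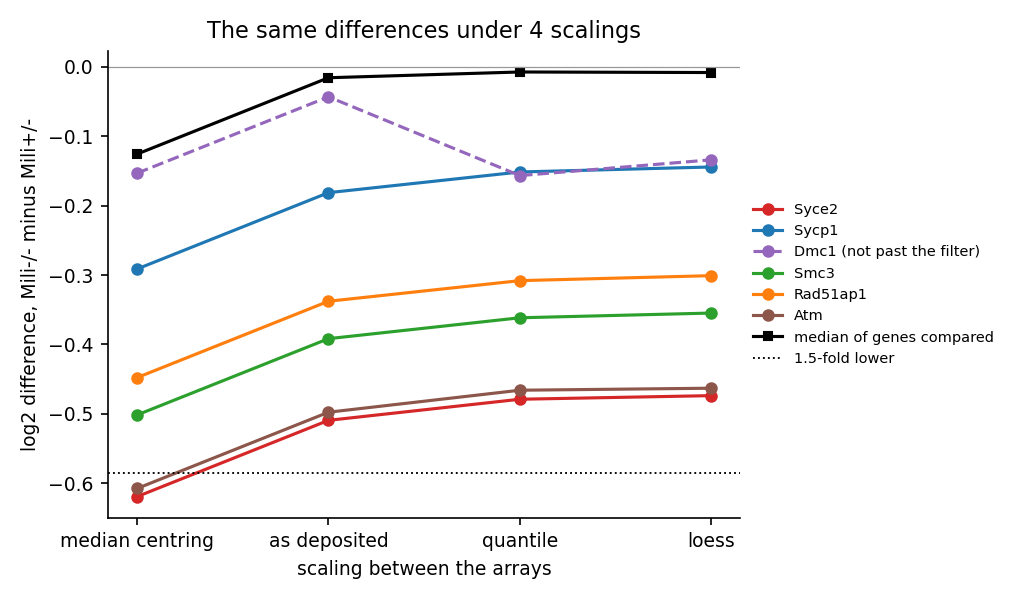
Log2 difference (Mili-/- minus Mili+/-) of Syce2, Sycp1, Dmc1, Smc3, Rad51ap1 and Atm and the median of the genes compared, under 4 scalings of the arrays. Syce2 and Atm pass 1.5-fold lower (dotted line) with median centring alone. The 5 genes past the filter keep their order, which leaving out the centring could not change.

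The other genes of these steps were taken from 7 lists of 143 names, of which 64 had a probe set of 1 symbol and 49 passed the filter. The lists also hold genes of DNA damage signalling and mismatch repair and are not confined to genes specific to meiosis. Without the 7 genes, 44 of 57 on the array passed. Their median difference was -0.29, against -0.13 for all genes compared, and 31 of the 44 (70.5%) lay below that median, against 50% of genes compared. At least 20% lower stood 14 of the 44, against 22.3% of genes compared, and 2 stood at least 25% higher, against 7.28% of genes compared. Of the 44, 1 (Rad52) reached the median signal in Mili+/- only, a way in that selects for low differences. Only 1 stood at least 1.5-fold lower, against 5.04% of genes compared, and 2 at least 1.5-fold higher, against 2.47%. Of the 44, 3 stood as low as the median of the 5 genes, as did 7.97% of genes compared.

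Genes that make and process DNA breaks stood lowest as a list, with a median of -0.45 over the 5 that passed, and 4 of the 5 below the median of genes compared. Rad50, of the break-binding MRN complex, had 180.7 in Mili+/- and 137.3 in Mili-/- (-0.51). Mre11a, the nuclease of that complex, had 89.7 and 69.2 (-0.48). The third subunit gene, Nbn, had 54.3 and 55.1 (-0.09), close to the median of genes compared. The exonuclease gene Exo1 had 57.9 and 45.9 (-0.45) and the nuclease and helicase gene Dna2 had 49.4 and 43.5 (-0.29). No probe set of 1 symbol stood for Spo11, which makes the breaks.

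In the strand exchange list, 10 of 16 genes on the array passed, with a median of -0.24 and 7 below the median of genes compared. Beside Rad51ap1, its largest differences were Rpa1 (-0.34), Rpa3 (-0.31) and Rpa2 (0.29), the 3 subunit genes of the single-strand binding complex RPA, which did not go one way. Rpa2 had 65.5 in Mili+/- and 86.2 in Mili-/-. Psmc3ip, which encodes the DMC1 partner HOP2, was dim (32.8 and 20.5) and was not compared.

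In the DNA damage signalling list, 11 of 14 passed, with a median of -0.30 and 9 below the median of genes compared. After Atm came the clamp loader gene Rad17 (93.7 and 73.8, -0.45), Topbp1 (117.9 and 95.3, -0.42), which activates the kinase ATR, and the ubiquitin ligase gene Rnf8 (169.9 and 144.9, -0.34). The histone gene H2ax, whose product ATM phosphorylates at breaks, had 403.1 and 439.3 (0.01).

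Crossover and resolution genes stood on both sides, with 6 of 9 past the filter, a median of -0.09, and 3 below and 3 above the median of genes compared. Msh3 (45.7 and 81.2, 0.72), a mismatch repair gene, stood highest. Cdk2, a kinase found at crossover sites, had 230.7 and 181.4 (-0.46), the mismatch repair gene Pms2 had -0.43 and the topoisomerase gene Top3a -0.30. The cohesin list had 8 of 10 past the filter, with a median of -0.32 and 6 below the median of genes compared. The third gene past the filter in the synaptonemal complex list was Trip13 (86.8 and 76.3, -0.30), an ATPase gene that removes HORMA-domain proteins from synapsed axes.

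**Figure D4:**
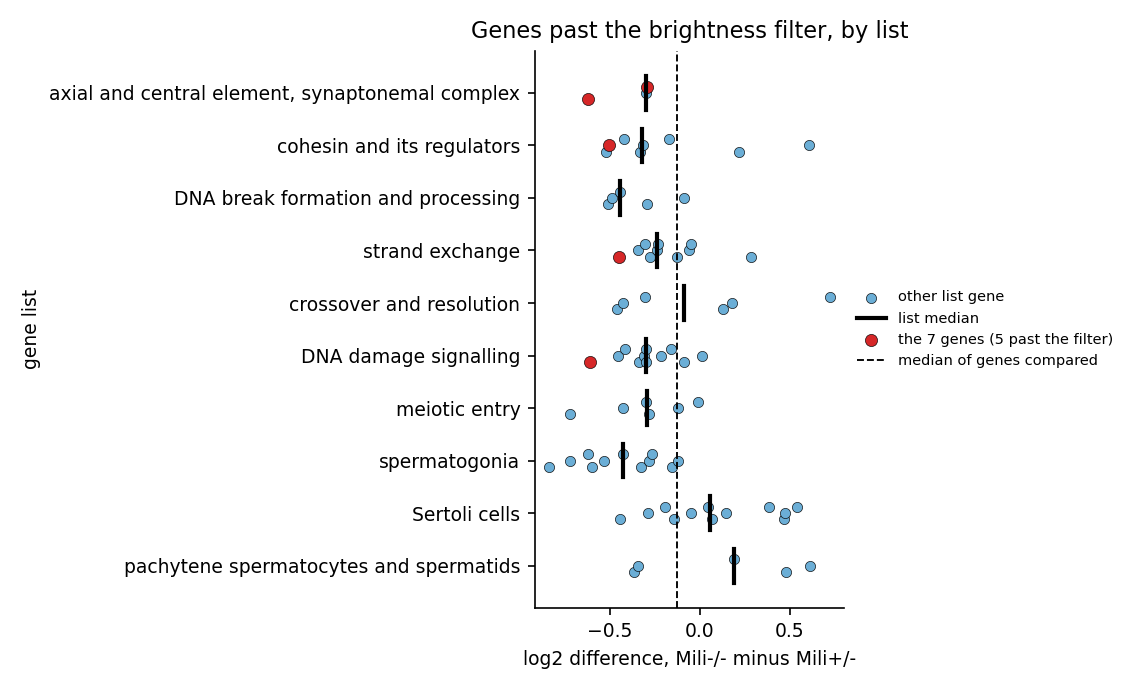
Log2 difference (Mili-/- minus Mili+/-) of each gene past the filter, 1 point per gene, in the 7 lists of meiotic prophase and 3 marker lists, with the list median as a bar. Of the 5 genes described here (red), 4 lie at or next to the low end of their lists and Sycp1 stands at -0.29, and the medians of the Sertoli cell and pachytene lists lie to the right of the median of genes compared (dashed).

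Meiotic entry genes had 6 of 20 names on the array, all past the filter, with a median of -0.29 and 4 below the median of genes compared. Stra8, induced by retinoic acid before meiosis, had 302.7 in Mili+/- and 198.1 in Mili-/-, a difference of -0.72 that is lower than that of any of the 5 genes. The germ cell helicase gene Ddx4 had 245.6 and 243.9 (-0.12). The RNA-binding protein gene Dazl had 1342.0 and 1190.6 (-0.28, about that of Sycp1) in its brighter probe set. Its other probe set had 97.2 and 73.1 (-0.52). Dmrt1, a regulator of meiotic entry, stood at -0.43 and the nuclear envelope gene Sun1 at -0.30.

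Of the marker lists for cell types of the tissue, those of spermatogonia and Leydig cells had a median below that of genes compared, as the 5 genes did, and the others had a median above it. Of the 15 spermatogonia markers, 13 had a probe set, 11 passed the filter, and 10 lay below the median of genes compared, with a median of -0.43. Their summed signal was 4260 in Mili+/- and 3604 in Mili-/-, and 1 marker, Ret, was under the floor on both arrays. The list shares Stra8, Dazl, Dmrt1 and Ddx4 with the meiotic lists, and the other 7 had a median of -0.53. Sall4 and Id4 likewise reached the median signal in Mili+/- only. Leaving these out, an alternative chosen after their values were seen, left 9 markers, 8 of them below the median of genes compared, with a median of -0.43. The 12 Sertoli cell markers on the array summed to 4783 and 5394 and had a median of 0.06, with 8 above and 4 below the median of genes compared. Of 7 Leydig cell markers on the array, 5 passed, with a median of -0.36 and 4 below the median of genes compared, and the 7 summed to 837 and 755. The 14 pachytene and spermatid markers summed to 308 and 359, with a median of 0.19 over the 5 past the filter, and 5 were under the floor on both arrays (Ldhc, Pgk2, Adam2, Prm1 and Prm2). The 8 peritubular markers summed to 4617 and 4967, with a median of 0.04 over the 7 past the filter. The 8 macrophage and blood markers summed to 1828 and 2358, with a median of 0.49 over the 7 past the filter. The 7 adipose markers summed to 284 and 556, with a median of 0.90 over the 5 past the filter. Of those past the filter, 2 macrophage and blood markers and 3 adipose markers reached the median signal in Mili-/- only. That way in selects for high differences. The Sertoli, Leydig and pachytene lists each had 1 marker that reached it in Mili+/- only. In whole testis, fewer cells of a type and less RNA per cell cannot be told apart, and the part of these shifts in the values of the 5 genes was not tested.

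The log2 signals of the arrays correlated at 0.98 (Pearson, across probe sets of 1 array pair, which are not replicates). Control probe sets at the 3′ end of Actb were 1.53-fold over those at its 5′ end in Mili+/- and 1.52-fold in Mili-/-. No probe set of 1 symbol stood for Piwil2, so the genotype labels were not checked on the targeted transcript.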

How the data were processed

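The authors deposited a linear signal intensity for every probe set on both arrays. The arrays appear to have been scaled to a common level, since the mean after trimming 2% at either end was 99.99 on each. The sources used here name no software, background correction or detection call. Of 12488 probe sets, 66 controls were left out of comparisons, 10833 had 1 gene symbol, 396 several and 1193 no annotation row. Current symbols were taken from RefSeq (GRCm38.p6) by Entrez ID, which matched 10817.

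Signals were floored at each array's 20th percentile (6.3 for Mili+/-, 7.0 for Mili-/-), converted to log2 and then centred on the array median, which removed a shift of 0.11. A gene took its brightest probe set. It was compared if it reached the median signal on either array. The number of arrays limits the precision, and no test was possible.

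The members and lists were chosen with earlier results of these data known. Named were all members and up to 4 genes per list with the largest absolute difference. Others named (Nbn, Nipbl, Rad52, Id4, Sall4, Psmc3ip, H2ax, Ddx4, Rad21, Stag3 and the markers under the floor) were chosen after their values were seen. Protein sequences were not used here. The code was tested on simulated data. Alternatives were no centring, quantile normalization, loess (span 0.4), other floors, other filters, other probe set rules and thresholds of 20% lower and of 2-fold. Python 3.11.15, NumPy 2.4.6, pandas 2.3.3, statsmodels 0.14.6 and matplotlib 3.10.9 were used.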

Additional observations from a re-analysis of the deposited data

How the results depend on the processing

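The 5 compared genes and Dmc1 kept their direction under each scaling tried, and moved by less than the SD between probe sets (0.31). The floors could not test this, since the signals of these genes lie above each floor tried. That SD does not measure a shift between whole arrays and serves as a yardstick of size only. For Sycp1 and Dmc1 it shows no stability, since their whole differences are smaller than the SD. Sycp1 went from -0.29 with centring to -0.14 after loess, and Dmc1 from -0.15 to -0.04 as deposited. Sycp3, under the floor on both arrays, was left out of the members by choice under every setting. Without the filter it is among the 64 genes of the wider lists. Without the brightness filter Dmc1 entered and the median of the members was -0.47. Counts past a fold were less stable. Members at least 1.5-fold lower numbered 2 with centring and 0 as deposited, 0 after quantile normalization and 0 after loess. Of all genes compared, 5.04%, 2.43%, 2.87% and 2.71% stood so low under these scalings in turn. Members at least 20% lower numbered 4 with centring, and members at least 2-fold lower 0. Rad51ap1 fell short of 20% lower after quantile normalization (-0.31) and after loess (-0.30). Genes of the wider lists at least 1.5-fold lower numbered 3 (Syce2, Atm and Stra8) with centring, 1 as deposited, 0 after quantile normalization, 0 after loess and 5 of 64 without the filter (7.81%, against 7.21% of all genes in that setting). Without the members, an alternative added after the data were seen, 1 remained. Of the wider lists, 36 of 49 genes lay below the median of genes compared, and 19 of 26 with the filter at the 75th percentile, where fewer genes were compared. Over all genes, 43 were at least 2-fold different, against 28 with the floor at the 40th percentile, 305 without the filter, 7 with the filter at the 75th percentile and 8 with both arrays past the filter. No paired analysis was possible because each genotype had 1 array. Each member rests on 1 probe set and 1 array per genotype.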

Other observations

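Several genes of these steps were too dim to be compared. Msh5, which encodes part of the MutS complex that stabilises crossover intermediates, had signals of 9.4 in Mili+/- and 1.5 in Mili-/-, the latter under the floor of 7.0. Rad9a, which encodes part of the checkpoint clamp, had 19.9 and 8.0. The 3 probe sets of the clamp gene Hus1 had 28.8 and 33.1, 36.5 and 21.7, and 17.4 and 4.6, so they did not go one way. Both probe sets of the centromere protection gene Sgo1 were lower in Mili-/- and dim, with 22.5 and 16.8, and 11.2 and 5.3. The strand exchange genes Rad54l (7.5 and 15.9), Rad51b (19.8 and 25.7) and Rad51d (32.7 and 39.5) were dim and higher in Mili-/-. The dim genes thus did not go one way. These genes were chosen after their values were seen.

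Of genes in the wider lists that passed the filter, 5 had a second probe set with signal above the floor on both arrays. Cdca5 (-0.52 and -0.65) and Dazl (-0.28 and -0.52) agreed in direction. Fignl1 stood at -0.06 and 0.21, Stag2 at 0.61 and -0.41, and Cdk2 at -0.46 and, in a dim probe set, 0.09.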
